A study of Mus musculus with 4 samples.

Results

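The vitamin A genes described here are 9 mouse genes that carry retinoids, interconvert them, clear them or answer to them: Rbp4, Stra6l, Rdh10, Rdh11, Aldh1a1, Cyp26a1, Cyp26b1, Rarres1 and Rarres2. They were chosen by name around Rarres1, which had itself been selected on its higher level in liver libraries labelled DDI2-KO, and the question was whether the other 8 moved with it. They made up 9 of 48709 genes counted and 9 of the 13699 genes that passed the low-count filter, so no member was lost to the filter. Because Rarres1 chose the group, its difference between the genotypes is given below as a description without a test.

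Liver mRNA of untreated adult C57BL/6 mice was sequenced to find genes that depend on DDI2, an aspartic protease that acts on the transcription factor NRF1. There were 2 libraries per group, described by the study as biological replicates. The DDI2-KO animals carried DDI2 flox/flox with Alb-Cre, in which the albumin promoter drives Cre in hepatocytes, so that other liver cells are not the target of the deletion, and the WT animals were littermate controls, whose floxed alleles are not described per library. Ages and sexes were not given per library. Sequencing gave 34109018 (WT 1) and 31532247 (WT 2) reads assigned to genes, and 25582344 (DDI2-KO 1) and 22501208 (DDI2-KO 2).

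Ddi2 itself (chromosome 4, 141677549 to 141723419, minus strand of GRCm38) was counted at 141 and 123 CPM (read counts scaled for library size and composition) in WT 1 and WT 2 and at 157 and 164 CPM in DDI2-KO 1 and DDI2-KO 2. The count was therefore not lower in the knockout group (log2 fold change 0.28, SE 0.17, adjusted p = 0.349). A count over the whole gene does not show a floxed exon apart from the rest of the gene. The deletion could therefore not be checked from it, and the groups are called libraries labelled DDI2-KO and WT. The genes on the Y chromosome that were looked up, Ddx3y, Uty, Kdm5d and Eif2s3y, had 0 reads in each library. Xist, the RNA of the inactive X chromosome, was at 520 and 373 CPM in WT and 47.5 and 143 CPM in DDI2-KO (log2 fold change -2.23, SE 0.58, adjusted p = 0.120). Whether this difference between the libraries has a part in the values below was not tested.

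The tissue matched its label by its hepatocyte markers. Alb was the most abundant of the 8 hepatocyte genes listed, and their summed level was 164396 and 184181 CPM in WT and 152785 and 155215 CPM in DDI2-KO. None of these 8 genes passed the test by edgeR, none had an unadjusted p under 0.05 (23.5% of all genes tested did), and Hnf4a lay between 469 and 634 CPM in the 4 libraries.

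Retinoids reach the liver mainly as retinyl esters. Hepatocytes hydrolyse the esters and send retinol into the blood on RBP4 bound to transthyretin, while stellate cells re-esterify retinol through LRAT and hold most of the body's store. Within cells, retinol is oxidised to retinal by dehydrogenases of the RDH and ADH families and then to retinoic acid by ALDH1A enzymes. Retinoic acid binds RAR and RXR receptors on DNA, and CYP26 enzymes, whose genes are among the receptors' best known targets, break it down.

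Rarres1 (ENSMUSG00000049404) lies on the minus strand of chromosome 3, from 67478972 to 67515523 in GRCm38. It encodes a protein related to the carboxypeptidase inhibitor latexin, and its name records its first isolation as a gene responsive to the retinoid tazarotene. It had 494 and 283 reads in WT 1 and WT 2 and 1477 and 1254 reads in DDI2-KO 1 and DDI2-KO 2, which is 14.7, 9.16, 57.1 and 54.6 CPM. Both DDI2-KO libraries were above both WT libraries, and they lay closer to each other than the WT libraries did. The means were 11.9 ± 3.91 CPM in WT and 55.8 ± 1.76 CPM in DDI2-KO (SD, n = 2 each), a 4.68-fold higher level and a fitted log2 fold change of 2.22. Without WT 1, the higher of the WT libraries, the log2 fold change was 2.61, and without WT 2 it was 1.93. Lxn, the latexin gene 15045 bases from Rarres1, lay between 1.27 and 1.52 CPM in the 4 libraries (log2 fold change -0.11, SE 0.33, adjusted p = 0.874).

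The classical element bound by retinoic acid receptors is a direct repeat of a 6-base half-site with 5 bases between the copies. The 250 bases before the RefSeq start of each gene were searched on both strands for the half-site AGGTCA and its variants, namely GGGTCA with another leading base, AGTTCA with another central base, and GGTTCA with both, singly and as repeats with 5, 2 or 1 bases of any kind between them. Sequences for 7 of the 9 members were found in the RefSeq promoter table of build GRCm38.p6, and Rarres2 and Rdh10 were not among them. The promoters of Rarres1 (chr3:67515524-67515773, minus strand), which chose the group, and of Cyp26a1 (chr19:37697558-37697807, plus strand), the textbook retinoic acid target, are shown 5′ to 3′ on the strand of the gene with each half-site, read on either strand, in capitals. The promoter of Rdh16 (chr10:127800903-127801152, plus strand), a pathway gene that rose, is shown for comparison.
Rarres1: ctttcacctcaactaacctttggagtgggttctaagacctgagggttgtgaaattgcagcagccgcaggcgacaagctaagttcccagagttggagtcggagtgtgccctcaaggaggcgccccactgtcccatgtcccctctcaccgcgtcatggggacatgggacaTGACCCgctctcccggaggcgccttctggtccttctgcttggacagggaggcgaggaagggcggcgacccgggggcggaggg
Cyp26a1: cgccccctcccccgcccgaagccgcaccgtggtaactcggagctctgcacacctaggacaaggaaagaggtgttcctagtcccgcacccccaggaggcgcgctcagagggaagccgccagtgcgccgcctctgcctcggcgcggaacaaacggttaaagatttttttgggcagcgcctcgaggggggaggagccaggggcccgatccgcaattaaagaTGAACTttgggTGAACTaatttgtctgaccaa
Rdh16: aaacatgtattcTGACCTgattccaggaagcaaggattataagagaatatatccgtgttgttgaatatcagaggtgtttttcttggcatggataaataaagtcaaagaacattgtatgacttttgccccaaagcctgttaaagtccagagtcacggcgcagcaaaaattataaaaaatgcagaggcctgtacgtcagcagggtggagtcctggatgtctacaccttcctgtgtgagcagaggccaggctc
Cyp26a1 held a repeat with 5 bases between its half-sites, on the minus strand and 32 to 16 bases before the RefSeq start at 37697808, which lies inside the gene as annotated by GENCODE (from 37697798). The same pattern was found in 29 of the 32851 promoters searched (0.0883%). Rarres1 and Rdh16 each held 1 single half-site and no repeat, and at least 1 half-site was found in 38.6% of all promoters. Repeats with 2 bases between the copies were in 0.174% of all promoters, repeats with 1 base in 0.164%, and neither kind was in a promoter of the 7 members. These matches describe letters in a short window and were not tested for binding.

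**Figure D1:**
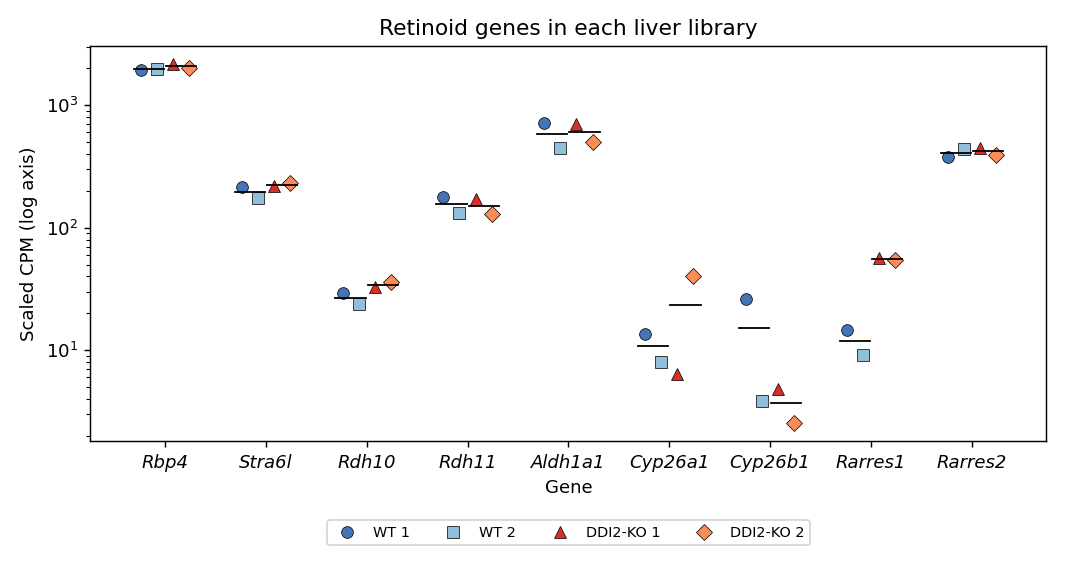
Scaled CPM (log axis) of the 9 retinoid genes in each library, with WT 1 and 2 in blue, DDI2-KO 1 and 2 in red and orange, and the mean of each group as a bar. Rarres1 stands at 9.16 and 14.7 CPM in WT and 54.6 and 57.1 CPM in DDI2-KO, while Cyp26a1 is split between the DDI2-KO libraries and Cyp26b1 between the WT libraries.

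None of the 8 other members passed an adjusted p of 0.05 in edgeR's quasi-likelihood test, where 346 of the 13699 genes tested (2.53%) did. That total was 153 without WT 1, 203 without WT 2 and 631 without DDI2-KO 2. None had an unadjusted p under 0.05 either, which 23.5% of all genes tested had, and DESeq2, limma-voom and limma-trend also called 0 of the 8. Without WT 2, 1 of the 8 was called, Cyp26b1, in a comparison that kept its outlying library WT 1 as the whole WT group. Of these 8, 3 had groups that did not overlap, each of them higher in DDI2-KO (Rbp4, Rdh10 and Stra6l), where 28% of all genes tested had groups that did not overlap and were higher, and 55.7% had groups that did not overlap in either direction. The 95% confidence intervals of the log2 fold change ended below 1, a doubling, for Rbp4, Stra6l, Rdh10, Rdh11, Aldh1a1 and Rarres2. Those of Cyp26a1 and Cyp26b1 were several times wider.

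**Figure D2:**
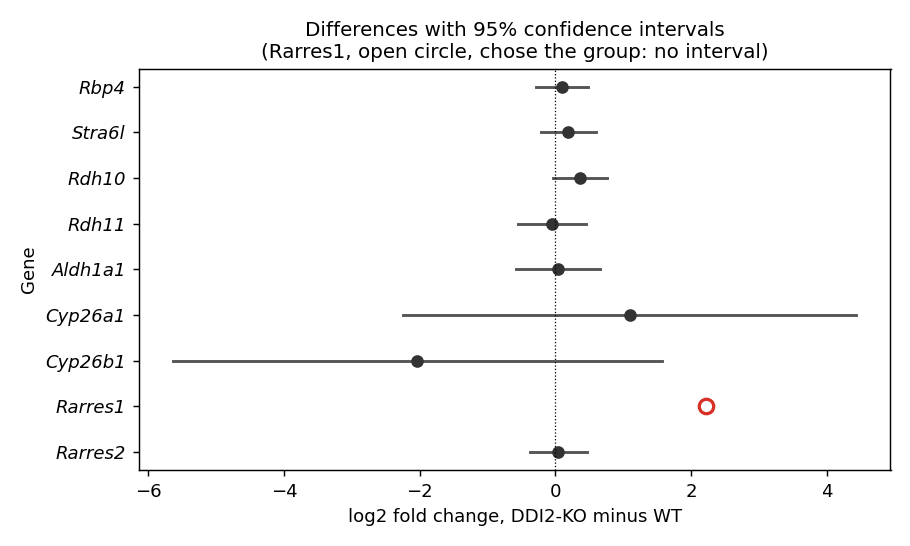
Fitted log2 fold change (DDI2-KO minus WT, horizontal axis) of each gene with its 95% confidence interval as a line. Rarres1, the open circle at 2.22, chose the group and has no interval, and each of the other 8 intervals spans 0, with those of Cyp26a1 (-2.24 to 4.44) and Cyp26b1 (-5.64 to 1.57) the widest.

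Neither member of retinol transport passed the test. Rbp4, which encodes the plasma carrier of retinol made by hepatocytes, was at 1951 and 1969 CPM in WT and 2169 and 2018 CPM in DDI2-KO. The groups did not overlap, but the log2 fold change was 0.09 (95% confidence interval -0.29 to 0.48, adjusted p = 0.773). Stra6l, also known as Rbpr2 and encoding a membrane receptor for RBP4 in liver, was at 214 and 176 CPM in WT and 217 and 229 CPM in DDI2-KO. Here too the DDI2-KO libraries were just above the WT libraries, with a log2 fold change of 0.19 (interval -0.22 to 0.61, adjusted p = 0.556). Stra6, the RBP4 receptor of other tissues, had 0 reads in all 4 libraries, which allows up to 0.0892 to 0.131 CPM by counting error alone.

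Of the enzymes that interconvert retinol and retinal, Rdh10, which oxidises retinol, was at 29.2 and 23.8 CPM in WT and 32.5 and 36.0 CPM in DDI2-KO. Both DDI2-KO libraries were above both WT libraries, and the log2 fold change of 0.37 (interval -0.03 to 0.77) did not pass the test (adjusted p = 0.240). The value stayed above 0 in all settings, from 0.23 without WT 2 to 0.53 without WT 1. The unadjusted p by edgeR was 0.0433 with library totals only and 0.042 without a low-count filter (adjusted p = 0.195 and 0.239). Rdh11, a microsomal enzyme that reduces retinal, was at 178 and 132 CPM in WT and 171 and 130 CPM in DDI2-KO, so that the groups overlapped almost completely. Its log2 fold change was -0.05 (interval -0.54 to 0.45, adjusted p = 0.923), and it turned to above 0 with library totals only, to 0.19 without WT 1 and to 0.15 without DDI2-KO 2. Aldh1a1, which oxidises retinal to retinoic acid, was at 721 and 445 CPM in WT and 696 and 504 CPM in DDI2-KO. Its libraries differed more within each group than the groups did from each other (log2 fold change 0.04, interval -0.58 to 0.67, adjusted p = 0.945). It turned to -0.01 with upper-quartile factors, to -0.27 without WT 2 and to -0.21 without DDI2-KO 1. Of the 50-base words in the longest Aldh1a1 transcript, 6.54% also occur in its near copy Aldh1a7, so reads from those stretches could not be assigned to either gene.

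Aldh1a1 and Rdh11 were both lower in WT 2 than in WT 1, and pericentral hepatocyte markers were too. Glul, the glutamine synthetase gene of the cells around the central vein, was at 1340 CPM in WT 1 and 623 CPM in WT 2, and at 1055 and 984 CPM in DDI2-KO. Oat was at 814 and 427 CPM in WT, and at 1225 and 676 CPM in DDI2-KO. The 9 pericentral genes listed summed to 11816 and 6898 CPM in WT and 11240 and 9533 CPM in DDI2-KO, with Cyp2e1 the most abundant. The part of zonation in the retinoid values was not tested.

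The CYP26 enzymes, which hydroxylate retinoic acid for removal, gave the least even values. Cyp26a1, the main form of the liver, had 456 and 248 reads in WT and 165 and 922 reads in DDI2-KO, or 13.6, 8.03, 6.37 and 40.1 CPM. DDI2-KO 1 was the lowest of the 4 libraries and DDI2-KO 2 the highest, 6.29-fold apart, so the WT libraries lay between them. Of the genes tested, 99.7% differed by that much or less between the DDI2-KO libraries. The log2 fold change was 1.10 (interval -2.24 to 4.44, adjusted p = 0.619) and turned to -0.75 without DDI2-KO 2 (adjusted p = 0.303), while without DDI2-KO 1 it was 1.90 (adjusted p = 0.0803). Cyp26a1 was therefore not shifted alike in both DDI2-KO libraries. Whether retinoic acid had a part in the levels of Cyp26a1 or Rarres1 was not tested.

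Cyp26b1 had 887 and 118 reads in WT and 125 and 58 reads in DDI2-KO, or 26.4, 3.82, 4.83 and 2.52 CPM. WT 1 stood apart from the other 3 libraries, and WT 2 fell between the DDI2-KO libraries. The WT libraries were 6.91-fold apart, and 99.8% of the genes tested differed by that much or less between them. The log2 fold change was -2.03 (interval -5.64 to 1.57, adjusted p = 0.408), and without WT 1 it was -0.05 (adjusted p = 0.975). Without WT 2 it was -2.83 (adjusted p = 0.00216), but there the outlying WT 1 alone stood for its group and the spread came from the DDI2-KO libraries only, so the call rests on that library. The third enzyme of the family, Cyp26c1, had 0 reads in all libraries.

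Rarres2, the remaining gene named for its response to tazarotene, encodes chemerin, a secreted chemoattractant and adipokine that the liver makes in quantity. It was at 378 and 437 CPM in WT and 449 and 393 CPM in DDI2-KO, and the groups overlapped. The log2 fold change was 0.05 (interval -0.37 to 0.46, adjusted p = 0.905), and was -0.01 with upper-quartile factors and -0.05 without WT 1 or without DDI2-KO 1. Exons of Lrrc61 on the opposite strand cover 33.6% of the exonic bases of Rarres2, and the sources used here do not state whether counting used strand. Counted without strand, reads on the shared stretch would fall on both genes and be left out, so the Rarres2 count may lack reads. Of chemerin's receptors, Cmklr1 lay between 4.26 and 6.88 CPM in the 4 libraries and Gpr1 had 2 reads in WT 1 and 0 in the others.

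Compared per kb of annotated exon, the levels of the 9 genes in WT ran from Rbp4 at 1459 CPM per kb, through Rarres2 (153), Aldh1a1 (118), Rdh11 (44.9), Stra6l (20.4), Rarres1 (9.0), Rdh10 (6.37) and Cyp26a1 (5.44), to Cyp26b1 at 2.82 CPM per kb. The WT values of neighbours in this order overlapped for Rarres2 with Aldh1a1, and for Rarres1 with Rdh10, Rdh10 with Cyp26a1 and Cyp26a1 with Cyp26b1. In DDI2-KO, Rarres1 was at 42.1 CPM per kb, above Stra6l (23.3) and beside Rdh11 (43.4), whose libraries spanned 37.5 to 49.4. Cyp26a1 spanned 3.21 to 20.2 CPM per kb in DDI2-KO.

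The genes are spread over 6 chromosomes. Rbp4 (38116629 to 38125281), Cyp26a1 (37697798 to 37701536) and Aldh1a1 (20492715 to 20643465) are all on chromosome 19 of GRCm38. Rarres2 (48569696 to 48572789) and Cyp26b1 (84571414 to 84593908) share chromosome 6, while Rdh10 is on chromosome 1 (16105774 to 16133734), Stra6l on chromosome 4 (45848664 to 45887008) and Rdh11 on chromosome 12 (79174337 to 79192293). None of the other 8 lies on chromosome 3 beside Rarres1.

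The genes whose centred log2 CPM over the 4 libraries lay nearest to that of Rarres1 were Gal3st1, Rdh16, Cyp2d9, Gna14 and Pdk4, at Euclidean distances of 0.165, 0.357, 0.387, 0.479 and 0.507. They were picked for likeness to Rarres1, which was itself selected on its higher level in DDI2-KO. Their higher levels in DDI2-KO follow from that choice, and the place of Rdh16 among them adds nothing to its own test. The likeness rests on 4 libraries. Gal3st1, a sulfotransferase gene, reached 2.20 CPM at most. Pdk4, a kinase of the pyruvate dehydrogenase complex, was at 6.78 and 6.93 CPM in WT and 35.5 and 32.6 CPM in DDI2-KO. Cyp2d9, a cytochrome P450 gene, was at 57.6 and 32.0 CPM in WT and 268 and 264 CPM in DDI2-KO.

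The wider retinoid pathway was described with 86 genes in 8 lists, of which 67 were tested and 11 had 0 reads. With Rarres1 left out, 2 of 66 passed the test as higher in DDI2-KO, Rdh16 and Ces1d, and 0 as lower, where 1.33% of all genes tested were called higher and 1.2% lower. At an unadjusted p under 0.05 there were 17 of the 66, beside 23.5% of all genes tested. Fitted log2 fold changes were positive for 32 and negative for 34, beside 6672 and 7027 of all genes tested, and their median was -0.04 beside -0.01. With library totals only these medians were 0.01 and 0.03. The pathway median was 0.02 without WT 1 and 0.05 without DDI2-KO 2, each over the 68 genes other than Rarres1 tested there. DESeq2 called 4 of the 64 it tested, beside 7.38% of all genes it tested, and limma-voom 2 of 66, beside 0.993%. Without WT 2 there were 4 calls among 68 tested, beside 1.46% of all genes, Ces1d no longer among them, and leaving out another library gave 2 to 4, beside 1.10 to 4.41%.

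**Figure D3:**
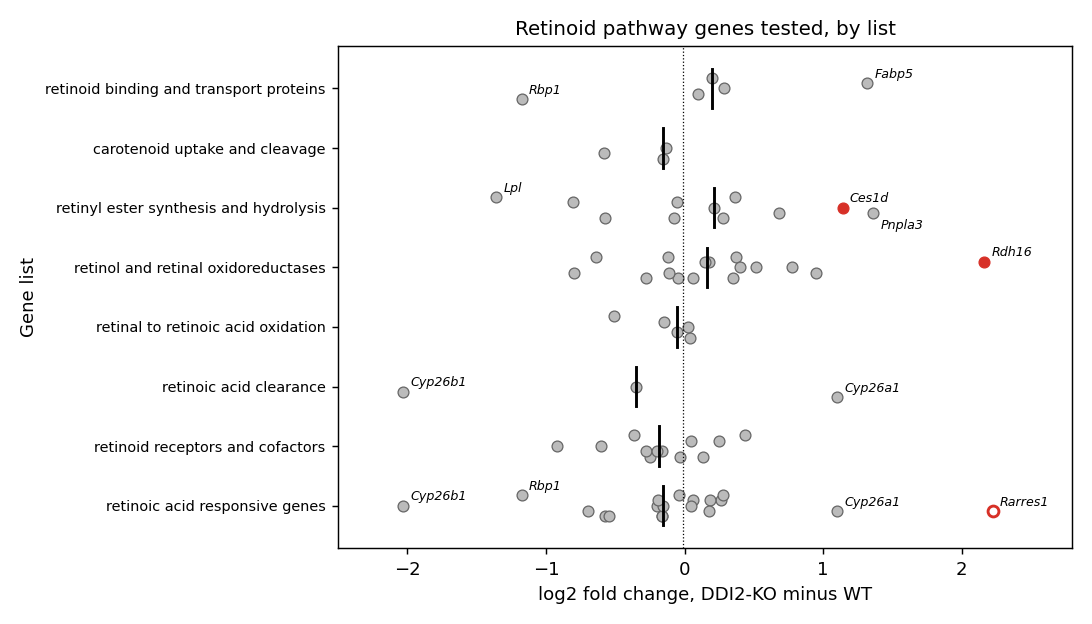
Fitted log2 fold change (DDI2-KO minus WT, horizontal axis) of each pathway gene tested, as points by list, with the median of each list as a short black bar and the median of all genes tested (-0.01) as a dotted line. Filled red points passed an adjusted p of 0.05 (Rdh16 and Ces1d), the open red circle is Rarres1, and a gene in 2 lists is drawn in both.

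Rdh16, an enzyme of the short-chain dehydrogenase family that oxidises retinol and 3-alpha-hydroxysteroids, rose in DDI2-KO. It was at 77.2 and 64.4 CPM in WT and 349 and 284 CPM in DDI2-KO, with both DDI2-KO libraries far above both WT libraries. The means were 70.8 ± 9.01 and 317 ± 46.0 CPM (SD, n = 2 each), a 4.47-fold rise with a log2 fold change of 2.16 (SE 0.20, adjusted p = 0.00942). It passed the test whichever library was left out, with log2 fold changes from 2.01 to 2.31. Rdh16 lies on chromosome 10 among related genes, and 7 of them, from Rdh1, Rdh16f1, Rdh9 and Rdh16 to Rdh19, Rdh16f2 and Rdh7, occupy 129 kb from 127759721 to 127888817. The neighbours of Rdh16 are named here for their place in this cluster, after their values were seen.

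Rdh7 was at 975 and 853 CPM in WT and 1278 and 1333 CPM in DDI2-KO (log2 fold change 0.51, SE 0.17, adjusted p = 0.131). Rdh16f2 overlapped between the groups, at 267 and 204 CPM in WT and 244 and 189 CPM in DDI2-KO (log2 fold change -0.12, SE 0.21, adjusted p = 0.772). Rdh9 ran from 14.0 to 29.9 CPM, and Rdh1 stayed under 1 CPM. Rdh16f1 had 0 reads, but 100% of the 50-base words in its transcript occur in other genes, mostly Rdh9. Exons of Rdh9 and Rdh1 on the same strand cover 83.2 and 16.8% of its exonic bases, so its reads could not be told apart from theirs. For Rdh16 this share was 15.9%, mostly with the pseudogene Rdh18-ps, which also overlaps 6.13% of its exonic bases. The share was 92.3% for Rdh9, 15.6% for Rdh1, 13.2% for Rdh7 and 10.03% for Rdh16f2, so the values of these near copies, that of Rdh9 most of all, are uncertain.

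**Figure D4:**
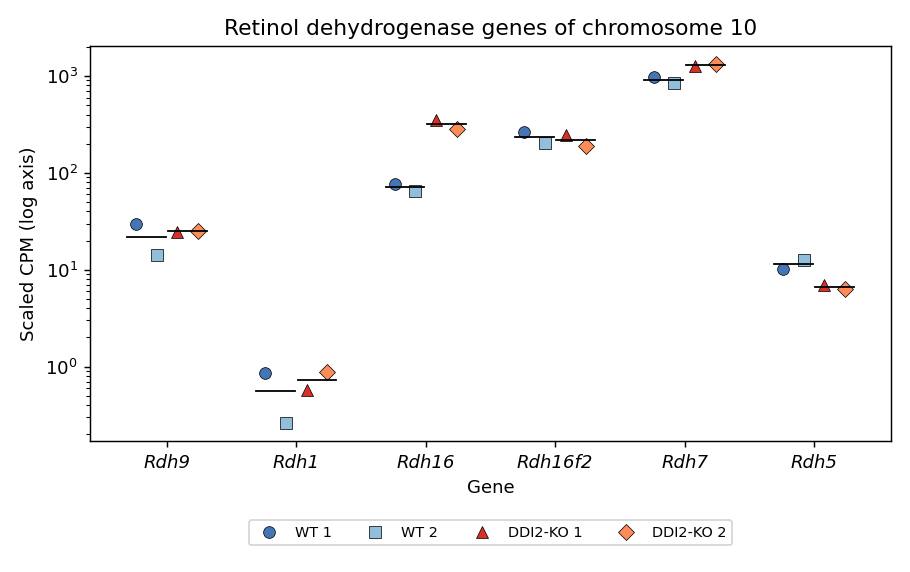
Scaled CPM (log axis) of retinol dehydrogenase genes of chromosome 10 in each library, with group means as bars. Rdh16 is at 64.4 and 77.2 CPM in WT and 284 and 349 CPM in DDI2-KO, while the libraries of Rdh9, Rdh1 and Rdh16f2 overlap between the groups.

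The other oxidoreductases held no call in the main edgeR test. Of the 22 listed, 16 were tested and Rdh16 was the single call (1.33% of all genes were called higher), with 10 fitted values above 0 and 6 below and a median log2 fold change of 0.16. An unadjusted p under 0.05 was found for 5 of the 16 (23.5% of all genes), and the groups did not overlap for 7 higher and 3 lower in DDI2-KO (28 and 27.7% of all genes). Adh1, the abundant alcohol dehydrogenase that also oxidises retinol, was at 2490 and 2470 CPM in WT and 2784 and 2710.0 CPM in DDI2-KO (log2 fold change 0.15, SE 0.16, adjusted p = 0.634). Rdh5 was at 10.3 and 12.8 CPM in WT and 6.92 and 6.31 CPM in DDI2-KO, lower in both DDI2-KO libraries without passing the test (log2 fold change -0.80, SE 0.21, adjusted p = 0.0763). Rdh13 was higher in both DDI2-KO libraries, also without passing (log2 fold change 0.95, SE 0.29, adjusted p = 0.112). Both genes were called without a low-count filter and with a block on the replicate number, beside 7.32 and 8.09% of all genes. Of the 50-base words in the longest Rdh5 transcript, 16.3% are shared with Bloc1s1, so the Rdh5 value is also uncertain. Dhrs3, a retinal reductase gene that retinoic acid induces in many cells, overlapped between the groups at 178 and 114 CPM in WT and 169 and 136 CPM in DDI2-KO (log2 fold change 0.06, SE 0.24, adjusted p = 0.913).

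Among the 11 genes of retinyl ester synthesis and hydrolysis, all of them tested, Ces1d rose as the single call in the main edgeR test (1.33% of all genes were called higher), and 5 had an unadjusted p under 0.05 (23.5% of all genes). Pnpla3 (log2 fold change 1.36, edgeR adjusted p = 0.209) was called by DESeq2 and with a block on the replicate number. Lipe was called with that block and Dgat1 without a low-count filter. These settings called 7.38% (DESeq2), 8.09% (block) and 7.32% (no filter) of all genes. Ces1d encodes a carboxylesterase of the endoplasmic reticulum that hydrolyses triglycerides and can act on retinyl esters. It was at 697 and 627 CPM in WT and 1376 and 1543 CPM in DDI2-KO, with no overlap. This was a 2.21-fold rise and a log2 fold change of 1.14 (SE 0.18, adjusted p = 0.0295). Without WT 2, where WT 1 alone stood for its group, the call was lost while the log2 fold change was 1.07. Of its neighbours, Ces1e was at 115 and 170 CPM in WT and 158 and 117 CPM in DDI2-KO (log2 fold change -0.06, adjusted p = 0.916). Ces1f (463 and 413 CPM in WT, 518 and 607 CPM in DDI2-KO, adjusted p = 0.268) and Ces1g (adjusted p = 0.534) did not pass either. Between 1.28 and 3.21% of the 50-base words of these carboxylesterase transcripts were shared with another gene. Lrat, the esterifying enzyme of stellate cells, was at 42.1 and 31.8 CPM in WT and 21.5 and 28.1 CPM in DDI2-KO, lower in both DDI2-KO libraries but short of the threshold (log2 fold change -0.58, SE 0.21, adjusted p = 0.148).

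Of the 11 binding and transport genes, 5 were tested and 0 called in the main edgeR test, 1 having an unadjusted p under 0.05 (2.53 and 23.5% of all genes). Transthyretin, Ttr, had the highest level, from 5998 to 8238 CPM (log2 fold change 0.29, SE 0.17, adjusted p = 0.351). The exception at the unadjusted threshold was Fabp5, a fatty acid binding protein that can also carry retinoic acid. Fabp5 was at 114 and 205 CPM in WT and 453 and 342 CPM in DDI2-KO (log2 fold change 1.32, SE 0.30, adjusted p = 0.0641). It was called by DESeq2, without a low-count filter and with a block on the replicate number. It was also called without WT 2, where WT 1 alone stood for its group. Of the 4 genes of carotenoid uptake and cleavage, 3 were tested and 0 called, 1 having an unadjusted p under 0.05, beside the same shares of all genes. Scarb1, Bco2 and Bco1 had log2 fold changes of -0.16, -0.13 and -0.58. Bco1, which cleaves beta-carotene to retinal, was at 13.5 and 12.6 CPM in WT and 8.27 and 9.23 CPM in DDI2-KO, lower in both DDI2-KO libraries (adjusted p = 0.121).

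In the step from retinal to retinoic acid, 5 of the 6 genes listed were tested and 0 called, 1 having an unadjusted p under 0.05 (2.53 and 23.5% of all genes). Aldh8a1 lay between 330 and 389 CPM. Aox3, an aldehyde oxidase, was at 358 and 365 CPM in WT and 274 and 234 CPM in DDI2-KO (log2 fold change -0.51, SE 0.18, adjusted p = 0.138). Aldh1a2, the enzyme of embryonic retinoic acid synthesis, had from 5 to 11 reads per library and was not tested. In the clearance list 3 of 4 genes were tested and 0 called, with 0 at an unadjusted p under 0.05, and Cyp2c39 ran from 7.88 to 15.7 CPM. Of its 50-base words, 12.0% are shared, mostly with Cyp2c38.

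The receptors and cofactors, 12 genes that were all tested, gave 0 calls by edgeR and 3 at an unadjusted p under 0.05 (2.53 and 23.5% of all genes). Rxra, the main RXR of liver, was at 305 and 266 CPM in WT and 364 and 225 CPM in DDI2-KO, overlapping between the groups (log2 fold change 0.04, SE 0.24, adjusted p = 0.937). Ncor1 and Ncoa2, a corepressor and a coactivator, had log2 fold changes of -0.28 and -0.36 (adjusted p = 0.337 and 0.206). Rarb, a receptor gene that is itself a standard retinoic acid target, had overlapping groups, at 8.0 and 10.001 CPM in WT and 8.27 and 7.83 CPM in DDI2-KO (log2 fold change -0.16, SE 0.21, adjusted p = 0.689).

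The list of retinoic acid responsive genes bears most directly on whether others rose with Rarres1. With Rarres1 left out it holds 24 genes, of which 18 were tested and 0 called by edgeR in either direction (2.53% of all genes were), 2 of them having an unadjusted p under 0.05 (23.5% of all genes). Both of those, Lrat and Meis2, were lower in DDI2-KO. Fitted log2 fold changes were positive for 7 and negative for 11, and their median was -0.16 beside -0.01 over all genes tested. The groups did not overlap for 2 genes higher and 4 lower in DDI2-KO, beside 28 and 27.7% of all genes. Pck1, the gluconeogenic enzyme with a known retinoic acid element, was at 919 and 698 CPM in WT and 884 and 566 CPM in DDI2-KO (log2 fold change -0.16, SE 0.25, adjusted p = 0.748). Tgm2, a transglutaminase gene induced by retinoic acid in many cells, was at 150 and 179 CPM in WT and 205 and 188 CPM in DDI2-KO (log2 fold change 0.26, SE 0.18, adjusted p = 0.412). Crabp2, Stra8 and Stra6 of the same list were at or near 0 reads, too few to compare the groups.

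Several of these genes belong to particular liver cells, and in bulk tissue fewer cells of a type and less RNA per cell cannot be told apart. The 13 stellate cell markers, which include Lrat, summed to 804 and 878 CPM in WT and 738 and 719 CPM in DDI2-KO, with Dcn the most abundant. Of these 13, 12 had a fitted log2 fold change below 0, beside 7027 of all 13699 genes, and 0 were called by edgeR, 2 having an unadjusted p under 0.05 (2.53 and 23.5% of all genes). The 8 sinusoidal endothelial markers summed to 472 and 426 CPM in WT and 436 and 410 CPM in DDI2-KO, with Clec4g the most abundant. Of these 8, 3 had a fitted log2 fold change above 0 and 5 below, and the groups did not overlap for 2 higher in DDI2-KO (Clec4g, 0.22, and Kdr, 0.16) and 2 lower, beside 28 and 27.7% of all genes. The single call was Stab2 (1.2% of all genes were called lower), and 2 had an unadjusted p under 0.05 (23.5%). This scavenger receptor gene fell from 73.7 and 61.2 CPM in WT to 32.9 and 29.9 CPM in DDI2-KO (log2 fold change -1.10, SE 0.17, adjusted p = 0.0288). Without WT 1 the log2 fold change was -0.96, with an adjusted p of 0.109. The 9 Kupffer cell markers summed to 951 and 804 CPM in WT and 1037 and 844 CPM in DDI2-KO, with Cd5l the most abundant, and 0 were called, 3 having an unadjusted p under 0.05 (2.53 and 23.5% of all genes). Of these 9, 6 had a fitted log2 fold change above 0 and 3 below. The groups did not overlap for 3 higher in DDI2-KO (Vsig4, Cd5l and Adgre1) and 3 lower (C1qa, C1qb and C1qc), beside 28 and 27.7% of all genes.

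Cholangiocyte markers summed to 56.5 and 53.1 CPM in WT and 70.5 and 68.8 CPM in DDI2-KO, mostly Spp1, and Sctr had 0 reads. Mesothelial markers summed to between 5.71 and 10.4 CPM in the 4 libraries, with Gpm6a the most abundant, and adipocyte markers to between 7.96 and 12.4 CPM, mostly Fabp4, with Plin1, Lep and Retn at 0 reads. The 8 periportal hepatocyte genes, led by Ass1, summed to 5491 and 5902 CPM in WT and 4785 and 3766 CPM in DDI2-KO, and 7 of them had a fitted log2 fold change below 0. Of the pericentral list, 7 of 9 were above 0. No gene of the cholangiocyte, mesothelial, adipocyte, pericentral or periportal lists was called by edgeR, and 1, 0, 2, 4 and 2 of them in that order had an unadjusted p under 0.05, beside 23.5% of all genes tested. The part of these cell populations and zones in the levels of the retinoid genes was not tested.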

How the data were processed

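The authors deposited raw read counts per Ensembl gene, 1 file per liver library, from stranded mRNA libraries sequenced on an Illumina instrument. Per the submitters' processing notes, cutadapt 1.8, STAR 2.5.2b, HTSeq 0.6.1 and build GRCm38 were used, and the strand setting is not given in the sources used here. Summary lines that name no gene were left out; as a share of gene reads, those on no annotated feature were 5.11 and 4.70% for WT against 2.53 and 3.65% for DDI2-KO, lower in both of the latter. Of 48709 gene IDs, 48349 matched GENCODE vM21, which gave symbols, positions and exon lengths.

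Counts were tested with edgeR 4.0.16 (TMM, filterByExpr, robust quasi-likelihood fit) in R 4.3.3, with Benjamini-Hochberg adjustment over all 13699 genes tested and calls at an adjusted p under 0.05. CPM were scaled by TMM. Alternatives used DESeq2 1.42.0, limma 3.58.1, other scalings and filters, a block on the replicate number of the labels, and each library left out. The scripts were tested on simulated counts. With 2 libraries per group, a test on any single gene alone could not reach significance by permutation, and all p-values rest on the spread pooled over genes. No 2 libraries were copies of each other: replicate counts differed by a chi-square of 64.7 (WT) and 34.7 (DDI2-KO) per degree of freedom, above sampling noise.

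The members and lists were chosen with earlier results of these data known. Named genes were the members, Ddi2, every pathway or partner gene called, the 3 most abundant tested genes of each pathway list, the 5 genes averaging 1 CPM or more that lay nearest to Rarres1, and the most abundant and any called gene of each cell type or zonation list. Other genes (such as the Rdh cluster, Lrat, Rarb, Dhrs3, Rdh5, Glul, Oat and Lxn) were named after their values were seen.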

Additional observations from a re-analysis of the deposited data

Results flagged for a closer look

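Reads that fell on more than 1 gene lie outside the gene counts, and their share was higher in the libraries labelled DDI2-KO than in both WT controls. They equalled 3.49 and 3.66% of the reads on genes in DDI2-KO (mean 3.57%) and 2.5 and 2.54% in WT (mean 2.52%). Alignments that were not unique, also outside the gene counts, went the other way. Relative to the reads on genes they were 65.8 and 51.8% in WT and 49.2 and 47.3% in DDI2-KO. Rarres1 exons overlap no other annotated gene, and Rarres2 exons overlap Lrrc61. The part of either kind of read in the retinoid counts, those of near copies included, was not tested.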

How the results depend on the processing

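Counts of calls moved with the test. Against 346 genes, DESeq2 called 911, limma-voom 136, limma-trend 139, edgeR without robust estimation 152, without a low-count filter 1544 and at an adjusted p under 0.1 1281, and leaving out 1 library gave 153 to 631 (153 without WT 1, 203 without WT 2, 631 without DDI2-KO 2). Upper-quartile factors gave 126 higher and 191 lower and library totals only gave 230 higher and 148 lower, against 182 and 164 with TMM. For the 8 members other than Rarres1, 0 calls held in all of these settings except without WT 2 (0 to 1 over the libraries left out). Pathway calls without Rarres1, 2 at first, were 4 with DESeq2, 6 without a filter and 5 at an adjusted p under 0.1, and 2 to 4 without single libraries. The counts planned at the start took in Rarres1, which chose the group, so they support nothing further: 3, 5, 7, 6 and 3 to 5, Rarres1 being in each except without DDI2-KO 1. The median of that list ran from -0.053 to 0.061 without single libraries. The causes were not tested. Signs turned for values near 0: Rarres2 to -0.00645 and Aldh1a1 to -0.0102 with upper-quartile factors, and Rdh11 to 0.00066 with library totals. Leaving out 1 library turned Rarres2 (-0.053 to 0.16), Rdh11 (-0.26 to 0.19), Aldh1a1 (-0.27 to 0.43) and Cyp26a1 (-0.75 to 1.90). Of 168 values of tested single genes under alternatives, 155 kept their direction and their side of the threshold, 10 turned sign, 2 lost a call (Stab2 and Ces1d) and 1 gained it (Cyp26b1).

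The labels do not say what the replicate number stands for. The correlation across genes of WT 1 minus WT 2 with DDI2-KO 1 minus DDI2-KO 2 was 0.0465. This value alone cannot show whether same-numbered animals were paired. With the replicate block, 1108 genes and 7 pathway genes other than Rarres1 (8 in the planned count) were called, and 0 of the 8 other members.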
